A study of Caenorhabditis elegans with 2 samples.

Results

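The 10 genes described here are the proneural bHLH genes *hlh-2*, *hlh-3*, *hlh-14*, *lin-32*, *ngn-1* and *cnd-1* of *Caenorhabditis elegans*, and the neurogenesis regulators *sox-2*, *ref-2*, *egl-44* and *egl-46*. They were taken by name from a list, out of 19973 protein-coding genes of the nuclear genome, and not by their signal. For each, every peak with its summit between 5 kb upstream of the outermost annotated 5′ end and the end of the gene body was collected. The peaks mark where the zinc finger protein ZTF-11, fused to eGFP, was found by chromatin immunoprecipitation and sequencing (ChIP-seq). There was 1 group of 2 biological replicates, made from whole L4 larvae, pooled male and female, of the strain OP236. Its genotype is unc-119(ed3) III; wgIs236, so every animal carries the *unc-119* mutation and the integrated insertion that tags ZTF-11. The labels name no promoter for the insertion. Whole animals were used, so peaks are not assigned to neurons or to any other cell type, and binding in a few cells cannot be told apart from weak binding in many.

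Proneural genes encode basic helix-loop-helix (bHLH) proteins that make precursor cells take a neuronal fate. They pair with the E protein, HLH-2 in the worm, and bind the short DNA element called the E-box, CANNTG. ZTF-11 belongs to the Myt1 family, whose mammalian member Myt1l is known for repressing non-neuronal genes. The question put to these peak lists was whether the factor was found at the genes of that neurogenic programme in L4 larvae.

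ZTF-11 was not found at any of the 10 genes by the strict list, and the pooled and replicate 1 relaxed lists held peaks there at about the frequency seen at any gene. Without *egl-44*, the densest of the 10 in both of these lists, peaks per kb were 0.252 against 0.306 (pooled) and 0.252 against 0.299 (replicate 1). Leaving out the densest gene lowers the value by construction, and the values of all genes keep their densest genes. The replicate 2 list held more per kb than at all genes. In the list thresholded by the authors on the irreproducible discovery rate (IDR), 0 of the 10 windows held a peak, as against 0.481% of all protein-coding genes. In the relaxed list called on the pooled replicates, 9 of the 10 windows held a peak, against 88.4% of all genes. The exception was *lin-32*. The strongest of the 27 pooled peaks had a signal of 13.2, whereas the thresholded peaks start at 27.2. A share so near that of all genes is not a result about these 10.

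The lists are of unequal character. The pooled list held 30000 peaks of 280 bp, that of replicate 1 held 30000 of mostly 390 bp and that of replicate 2 held 22869 of 196 bp, so a peak of replicate 1 is met by others more easily. The scale of the signal is not stated, and it was read only within a list, whose medians were 7.71 (pooled), 7.56 (replicate 1) and 3.3 (replicate 2). The −log10 q column stayed at or below 0.629 in replicate 1 and began at 2.58 in replicate 2, and which of these reflects enrichment is not known. Relaxed peaks include background by design. Read counts are not part of these lists, and the depth behind a peak is unknown.

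The sequences of 8 pooled peaks follow. Those of *hlh-14*, *sox-2*, *egl-44* and *egl-46* are shown because peaks of both replicates met them, and those of *hlh-3*, *ngn-1*, *cnd-1* and *ref-2* because they were the strongest pooled peak of their gene. The stretch at the strongest pooled peak of *hlh-2* is not printed here. Each line gives the bases within 100 bp of the summit, on the forward strand of ce11 from the RefSeq genome, 5′ to 3′. Where annotated UTR bases fell within that distance, only the stretch that holds the summit up to the UTR is given, which is 118 bases for *sox-2* and 138 for *egl-46*. Capitals mark every E-box, CANNTG.
hlh-3, chrII:9087301-9087501: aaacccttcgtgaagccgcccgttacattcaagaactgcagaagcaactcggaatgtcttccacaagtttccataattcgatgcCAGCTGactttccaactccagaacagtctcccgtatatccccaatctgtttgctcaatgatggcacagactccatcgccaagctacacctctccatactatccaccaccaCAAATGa
hlh-14, chrII:5743307-5743507: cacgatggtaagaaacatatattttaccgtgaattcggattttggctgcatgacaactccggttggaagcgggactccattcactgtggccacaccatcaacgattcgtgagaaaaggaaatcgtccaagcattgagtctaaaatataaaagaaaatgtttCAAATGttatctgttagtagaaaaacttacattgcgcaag
ngn-1, chrIV:2628985-2629185: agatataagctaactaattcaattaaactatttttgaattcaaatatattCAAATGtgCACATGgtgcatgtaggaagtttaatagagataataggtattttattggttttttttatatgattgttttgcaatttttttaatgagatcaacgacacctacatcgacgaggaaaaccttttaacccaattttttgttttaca
cnd-1, chrIII:5248690-5248890: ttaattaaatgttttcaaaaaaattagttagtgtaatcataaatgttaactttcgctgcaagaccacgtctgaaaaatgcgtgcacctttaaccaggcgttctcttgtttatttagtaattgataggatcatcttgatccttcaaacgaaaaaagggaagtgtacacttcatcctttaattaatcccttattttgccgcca
sox-2, chrX:7460312-7460429: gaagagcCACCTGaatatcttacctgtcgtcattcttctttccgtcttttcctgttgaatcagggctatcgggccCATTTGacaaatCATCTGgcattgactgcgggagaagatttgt
ref-2, chrX:7747387-7747587: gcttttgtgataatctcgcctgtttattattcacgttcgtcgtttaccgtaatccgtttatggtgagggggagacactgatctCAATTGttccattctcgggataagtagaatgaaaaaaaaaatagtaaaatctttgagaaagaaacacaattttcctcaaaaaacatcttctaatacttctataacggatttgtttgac
egl-44, chrII:5939360-5939560: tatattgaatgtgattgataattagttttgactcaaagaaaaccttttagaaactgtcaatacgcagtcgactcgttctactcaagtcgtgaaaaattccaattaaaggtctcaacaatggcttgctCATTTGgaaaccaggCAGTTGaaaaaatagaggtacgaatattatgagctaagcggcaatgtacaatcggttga
egl-46, chrV:6681430-6681567: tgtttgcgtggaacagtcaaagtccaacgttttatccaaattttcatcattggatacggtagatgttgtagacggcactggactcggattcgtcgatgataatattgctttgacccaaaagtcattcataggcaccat

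The E-box was present in 6 of these 8 stretches. The *sox-2* stretch held 3, *hlh-3*, *ngn-1* and *egl-44* held 2 each, *hlh-14* and *ref-2* held 1, and *cnd-1* and *egl-46* held 0. At the *hlh-2* peak, 3 E-boxes lay within 100 bp of the summit. The 7-mer AAAGTTT, known as the core of the site bound by Myt1-family fingers, was in none of the 8 on either strand, which says only that these letters are not in these windows.

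**Figure D1:**
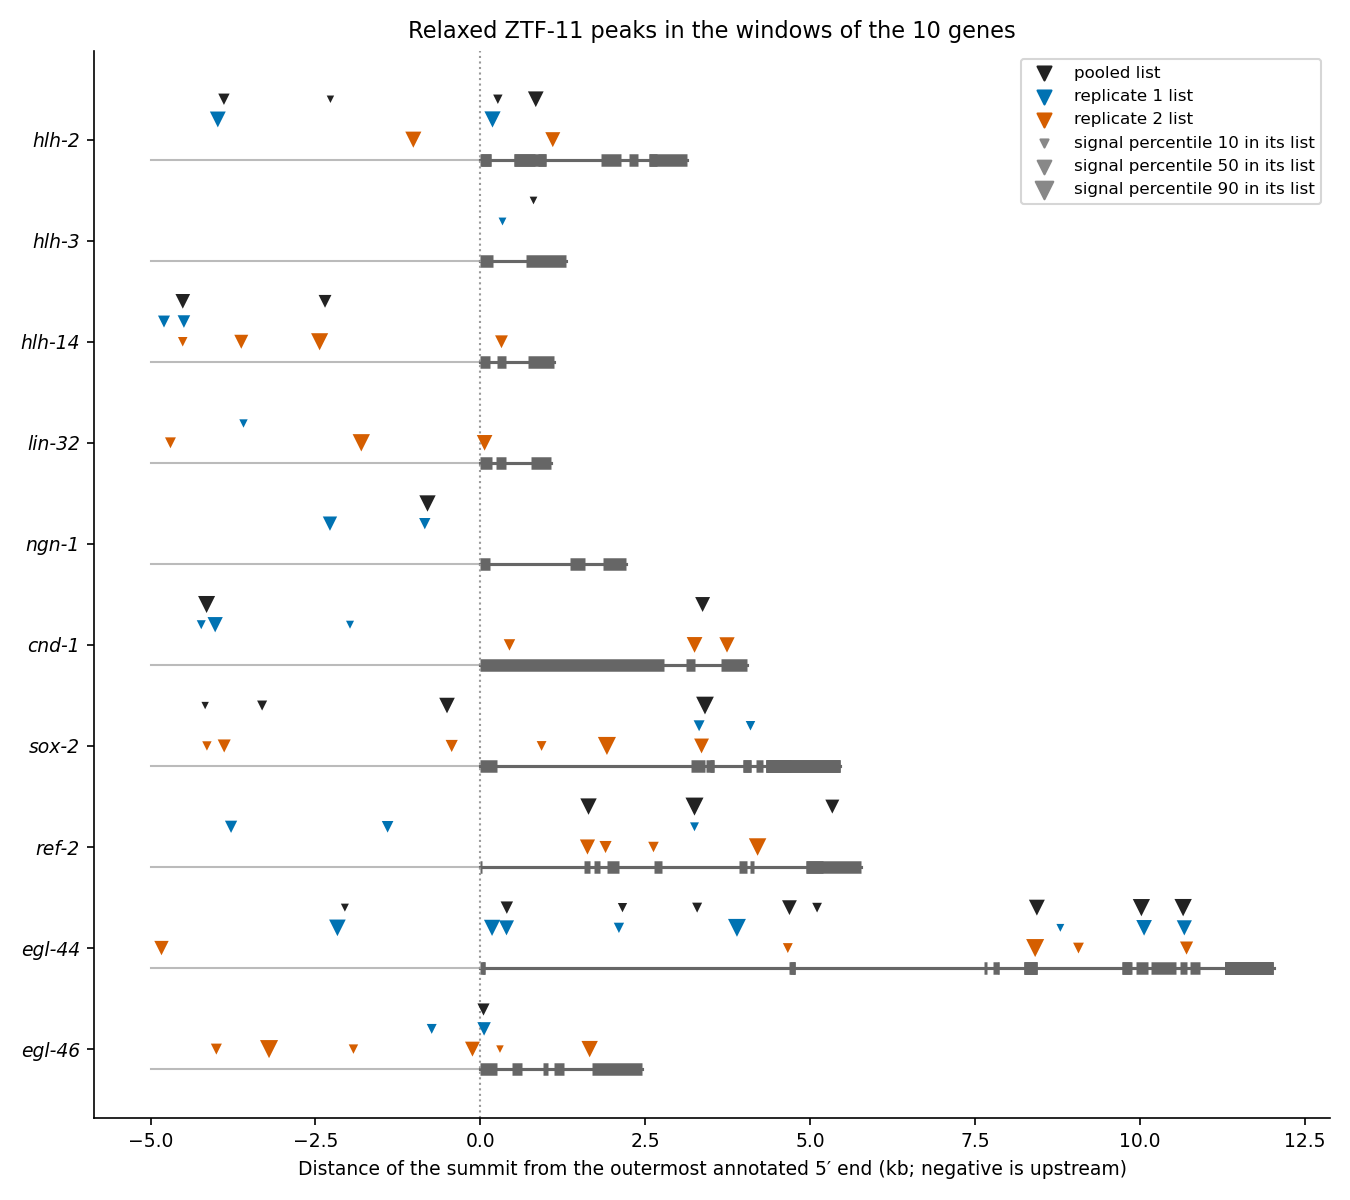
Relaxed peaks by gene, with the distance of each summit from the outermost annotated 5′ end on the x axis (kb, negative upstream) and 1 row per gene; triangles are peaks of the pooled, replicate 1 and replicate 2 lists, sized by the percentile of their signal within their own list, and grey boxes are annotated exons. *egl-44*, the longest gene, held 9 pooled peaks and *lin-32* held 0, and few triangles of the replicates line up.

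The common partner *hlh-2*, which encodes the E protein and lies on chromosome I at 7190788 to 7193920 on the minus strand, held 4 pooled peaks. The strongest had a signal of 8.93, ranked 9033 of 30000, and lay in an exon 841 bp downstream of the outermost 5′ end. It was met by a peak of neither replicate. Of the 3 weaker peaks, replicate 1 met that of 6.37 with 9.34, in an intron 185 bp downstream, and that of 6.86 with 9, at 3981 bp upstream. The other, of 6, lay 2273 bp upstream and was met by neither replicate. Replicate 2 had peaks of 3.84 in an intron and 4.49 at 1016 bp upstream. The replicates therefore shared no peak at *hlh-2*.

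Of the achaete-scute genes, *hlh-3* had peaks near the floor of the pooled and replicate 1 lists, and *hlh-14* had higher ones. *hlh-3*, which acts in neurons such as the egg-laying motor neuron HSN, lies on chromosome II at 9086608 to 9087908. Its window held 1 pooled peak, in an exon 793 bp downstream, with a signal of 6.05 and rank 27527. Replicate 1 had 1 peak, of 5.83, at 322 bp downstream, and replicate 2 had none. The lowest signals of these lists are 5.8 and 5.54, so both peaks were close to the floor of their list.

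*hlh-14*, which drives the lineage that makes the PVQ, HSN and PHB neurons, lies at 5737785 to 5738895 on the minus strand of chromosome II. Its pooled peaks lay 2355 and 4512 bp upstream, with signals of 7.37 and 8.23. Replicate 2 met the nearer with 5.46, rank 3403 of 22869, and replicate 1 did not. The farther was met by 7.09 in replicate 1 and 2.4 in replicate 2, but its summit lay inside the neighbouring gene F10C1.9, only 998 bp from the 5′ end of that gene.

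*lin-32*, the atonal orthologue needed for touch receptor and ray neurons, lies on X at 2229055 to 2230122 on the minus strand and had no pooled peak. Replicate 2 had 3 peaks there, of 4.17 at 65 bp downstream, 5.77 at 1805 bp upstream and 2.62 at 4699 bp upstream. Replicate 1 had 1, of 5.93 at 3604 bp upstream, in none of those places. The summit of this replicate 1 peak was nearer to the 5′ end of the neighbouring gene T14F9.2 than to that of *lin-32*. The replicate 2 peak of 2.62 had its summit inside T14F9.2, 497 bp from the 5′ end of that gene.

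*ngn-1*, the neurogenin gene, lies on chromosome IV at 2626062 to 2628271 on the minus strand. It had 1 pooled peak, with its summit 814 bp upstream, a signal of 9.53 and rank 7063. Replicate 1 met it with 6.64, rank 20758, and replicate 2 had no peak anywhere in the window. This was the strongest pooled peak in the promoter window of a bHLH gene of the list, and the only one.

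*cnd-1*, the NeuroD gene, which acts in motor neuron precursors, lies on chromosome III at 5240591 to 5244639 on the minus strand. Its stronger pooled peak, of 10.4 and rank 4743, lay 4151 bp upstream and was met by replicate 1 alone, with 8.52 and 6.05. The other, of 8.38, lay in an intron 3371 bp downstream and was met by replicate 2 alone, with 4.25.

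The strongest pooled peaks of the 10 genes were on X, at the Zic gene *ref-2* and the SoxB gene *sox-2*. *ref-2* keeps epidermal precursors from fusing and acts in neuronal specification, and lies at 7744239 to 7750013. Its strongest peak spanned 7747347 to 7747626, in an intron 3248 bp from the outermost 5′ end, with a signal of 13.2 and rank 1314. Replicate 1 met it with only 6.03, rank 25575 of 30000, and replicate 2 did not. A pooled peak of 9.62 lay in an exon 65 bp downstream of an internal 5′ end and was met by replicate 2 with 3.92. One more, of 7.87, lay in the UTR part of an exon near the 3′ end, with no replicate peak, nearer to the 5′ end of *deg-1*.

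*sox-2*, which encodes an HMG-box protein of neural progenitors, lies at 7458280 to 7463736 on the minus strand. Its strongest pooled peak spanned 7460189 to 7460468, with 12.1 in signal and rank 2271. The summit was 3407 bp into the gene and 18 bp upstream of an internal annotated 5′ end, 1 of the 4 of this gene. Replicate 1 met it with 6.53, rank 21587, and replicate 2 with 3.77, rank 8863. A peak of 8.85 lay 505 bp upstream of the outermost 5′ end and was met by replicate 2 alone, with 2.89. The remaining 2, of 6.51 and 5.99, lay in the neighbour *coh-1*. Replicate 2 had its own strongest peak of the gene elsewhere, in an intron 1920 bp downstream, with a signal of 8.01 and rank 815, and neither the pooled list nor replicate 1 had a peak there.

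*egl-44*, the TEAD-type gene, and *egl-46*, which encodes its zinc finger partner, act together in fate choices of neurons such as FLP. *egl-44* has the longest window, 17.03 kb on chromosome II with the gene at 5928802 to 5940830, and 9 annotated 5′ ends. It held 9 pooled peaks, with signals from 6.1 to 11.1. At least 9 were found at 1.38% of all genes, whose median window was 7.03 kb. The strongest, at 5939320 to 5939599 in an exon near the 3′ end, had rank 3591 and was met by 8.44 in replicate 1 and 3.15 in replicate 2. A pooled peak of 9.1 in an exon, 191 bp downstream of an internal 5′ end, was met by replicate 2 with 7.59, rank 1028, and not by replicate 1. The strongest replicate 1 peak of all 10 genes, of 12.6 and rank 1775, lay in an intron of *egl-44* 3892 bp from the outermost 5′ end and in the promoter window of an internal one, where no other list had a peak.

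*egl-46* lies on chromosome V at 6679123 to 6681573 on the minus strand. Its pooled peak, at 6681390 to 6681669, lay at the start of the gene, 43 bp downstream of its annotated 5′ end, with a signal of 7.11 and rank 18851. It was met by 7.47 in replicate 1 and 3.8 in replicate 2. This was the only promoter peak of the 10 genes at an outermost 5′ end that both replicates met. Replicate 2 had 6 peaks in the window, the strongest, of 7.87 and rank 874, at 3204 bp upstream, with no peak of the other lists there.

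By their highest pooled signal the genes ran *ref-2* (13.2), *sox-2* (12.1), *egl-44* (11.1), *cnd-1* (10.4), *ngn-1* (9.53), *hlh-2* (8.93), *hlh-14* (8.23), *egl-46* (7.11) and *hlh-3* (6.05). The median of these highest signals was 9.53 over the 9 genes with a peak and 9.4 over all genes with one. In replicate 1 it was 7.28 over the 10 genes and 9.29 over all genes with a peak, and in replicate 2 it was 5.9 over 8 genes and 4.26 over all. The replicates thus lay on opposite sides of all genes, and neither difference was tested. The order was not shared by the replicates. In replicate 1 it opened with *egl-44* (12.6), *hlh-2* (9.34) and *cnd-1* (8.52), with *ref-2* at 6.97 and *sox-2* at 6.53. In replicate 2 it opened with *sox-2* (8.01), *egl-46* (7.87) and *egl-44* (7.59), with *hlh-2* at 4.49 and *cnd-1* at 4.25. *egl-44* alone was among the first 3 in all 3 lists. It also has the longest window, 17.03 kb, with 9 pooled, 8 replicate 1 and 5 replicate 2 peaks. The highest signal of a gene was not adjusted for its number of peaks. *hlh-3* was last in the pooled and replicate 1 lists and had no peak in replicate 2. Each list has its own scale, so no spread can be set on neighbours in these orders.

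None of the 10 windows held one of the 1000 strongest pooled peaks, against 7.79% of all genes. Replicate 1 also gave 0 of 10, against 7.79%. In replicate 2 there were 2, *sox-2* and *egl-46*, against 7.64%, and both peaks were absent from the other lists. Of the 27 pooled peaks, 14 (51.9%) were at or above the median signal of the list. In replicate 1 this held for 10 of 26 (38.5%) and in replicate 2 for 17 of 33 (51.5%), where the whole lists have 50% by construction.

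**Figure D2:**
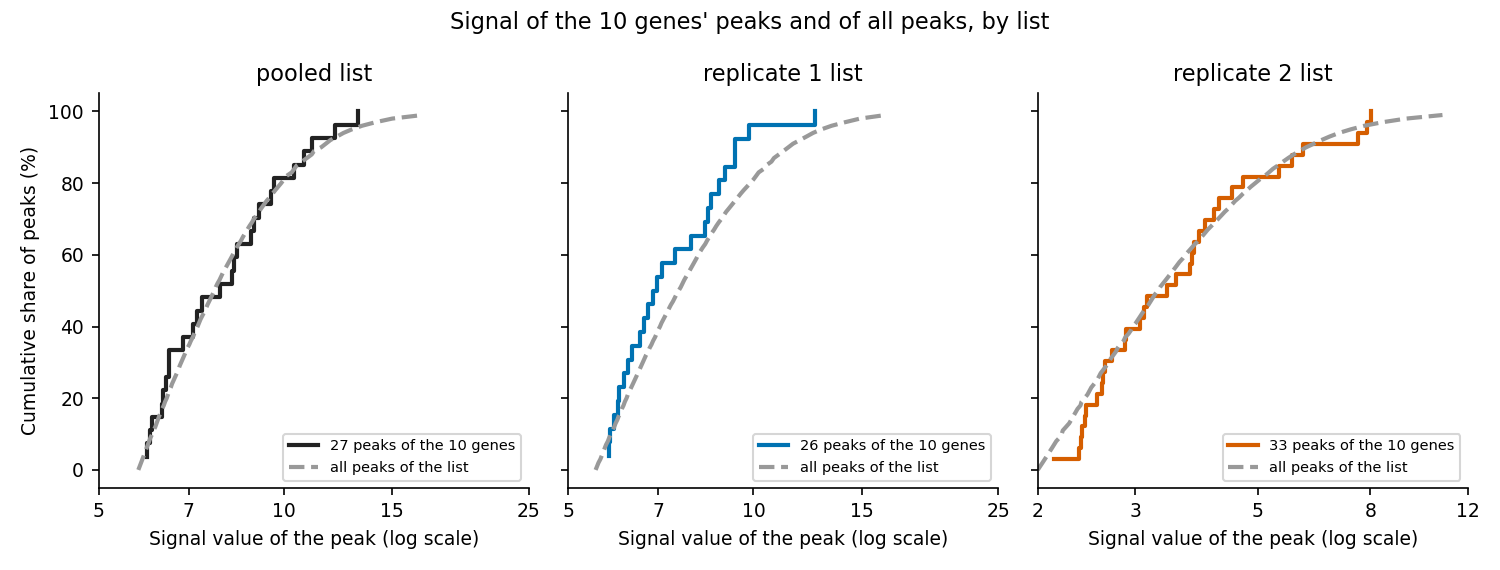
Cumulative share of peaks (y axis, %) by signal value (x axis, log scale) in the pooled, replicate 1 and replicate 2 lists; the solid steps are the 27, 26 and 33 peaks of the 10 genes and the dashed line is the whole list up to its 99th percentile. The steps follow the dashed line in the pooled and replicate 2 lists and run to its left, at lower signal, in replicate 1.

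Over all 10 windows, peak frequency per length was at the level of all genes in the pooled and replicate 1 lists and above it in replicate 2. Without *egl-44* it was 0.252 per kb in the pooled list and 0.252 in replicate 1, both below all genes, and 0.391 in replicate 2. The 10 windows span 88.6 kb and held 0.305 pooled peaks per kb, against 0.306 in the windows of all protein-coding genes, which overlap each other. Replicate 1 gave 26 peaks in all 10 windows, 0.293 per kb against 0.299, where 87.5% of all genes have a peak. Replicate 2 gave 33 peaks in 8 windows, 0.373 per kb against 0.243, where 77.0% of all genes have a peak. Its values ran from 0 at *hlh-3* and *ngn-1* to 0.805 at *egl-46*, 0.655 at *hlh-14* and 0.574 at *sox-2*. By chromosome the whole replicate 2 list ran from 0.194 per kb on IV to 0.258 on III, with 0.247 on X. These differences from all genes were not tested, and 1 replicate carries that of replicate 2.

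**Figure D3:**
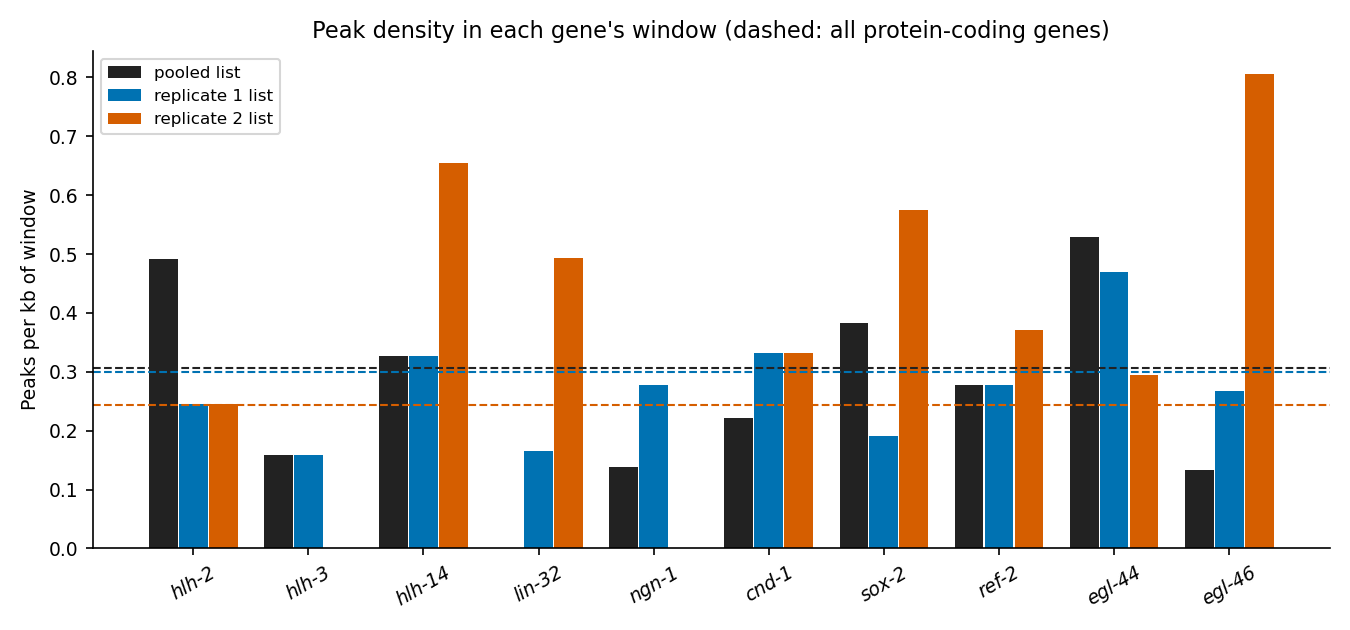
Peaks per kb of window (y axis) for each gene in the pooled, replicate 1 and replicate 2 lists, with dashed lines at the value of all protein-coding genes in the same colours (0.306, 0.299 and 0.243). *hlh-2* and *egl-44* are highest in the pooled list, and *egl-46*, *hlh-14*, *sox-2* and *lin-32* are highest in replicate 2.

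The pooled peaks were denser in gene bodies than upstream. Gene bodies held 17 peaks in 38.6 kb, 0.44 per kb against 0.313 for all genes, and 8 of the 17 were in *egl-44*. Without *egl-44*, bodies held 9 peaks, 0.338 per kb. The upstream 5 kb held 10 peaks, 0.2 per kb against 0.301, and 0.2 without *egl-44*. By class, 7 summits were in promoter windows (1000 bp upstream to 200 bp downstream of any annotated 5′ end of the gene), 8 were farther upstream, 7 in introns and 5 in exons. For 5 of the 27 the 5′ end of another protein-coding gene was nearer, F10C1.9 for *hlh-14*, *coh-1* for 2 at *sox-2*, *deg-1* for *ref-2* and F28B12.6 for *egl-44*. Neither the classes nor the nearer neighbours were counted over all pooled peaks.

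Promoter windows of 5 of the 10 genes held a pooled peak (*ngn-1*, *sox-2*, *ref-2*, *egl-44* and *egl-46*), against 39.1% of all genes. With only the outermost 5′ end of each gene, 3 did, and the share of all genes was not counted by that rule. Replicate 1 also gave 5 genes, with *hlh-2* in place of *ref-2*, against 39.3%. Replicate 2 gave 5, with *lin-32* in place of *ngn-1*, against 28.1%. *sox-2*, *egl-44* and *egl-46* were in all 3 sets. *hlh-3*, *hlh-14* and *cnd-1* were in none.

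The replicates seldom met at these genes, and they met no more often in the whole lists. Of the 27 pooled peaks, 13 (48.1%) were met by a replicate 1 peak, against 61.3% of all pooled peaks, and 11 (40.7%) by a replicate 2 peak, against 25%. Both replicates met 4 (14.8% against 10%), and neither met 7 (25.9% against 23.7%). A pooled peak met by both replicates lay at 4 of the 10 genes, against 21.5% of all genes. Those at *hlh-14* and *egl-44* were nearer to the 5′ end of a neighbouring gene. Set directly against each other, 6 of the 26 replicate 1 peaks (23.1%) met one of replicate 2, against 12.2% of the whole list, and 6 of the 33 replicate 2 peaks (18.2%) met one of replicate 1, against 15.4%. When only peaks at or above the median of their own list were kept, 0 of the pooled peaks of these genes were met by both replicates. The share over all pooled peaks was not counted for that setting. The pooled list was made from the same libraries, so its overlap with them is not an independent repeat.

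E-boxes were frequent in the peaks of these genes, and the Myt1 core was not. CANNTG lay within 100 bp of 22 of the 27 pooled summits (81.5%), against 56.4% of all pooled summits. The share was 17 of 26 (65.4% against 52.8%) in replicate 1 and 26 of 33 (78.8% against 65.3%) in replicate 2. Tiles of the same length laid end to end held it in 59.7% over the 10 windows and in 53.6% over the nuclear genome. AAAGTTT lay within 100 bp of 3 pooled summits (11.1% against 15.2%), 1 each at *hlh-2*, *sox-2* and *egl-44*. Its share was 15.4% in replicate 1 (against 17.9%) and 3.03% in replicate 2 (against 6.1%). Tiles held it in 14.9% over the 10 windows and in 16.3% over the nuclear genome. The shorter AAGTT, which AAAGTTT contains, lay at 14 pooled summits (51.9% against 56.9%). G and C content was alike, with a median of 37.1% in the 27 peaks and 36.1% in all pooled peaks. Repeat content was not alike. Sequence masked as repeats made up most of 1 of the 27 peaks (3.7%) and of 17.3% of all pooled peaks. The comparison over tiles was added after the values were seen, and none of these shares was tested.

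**Figure D4:**
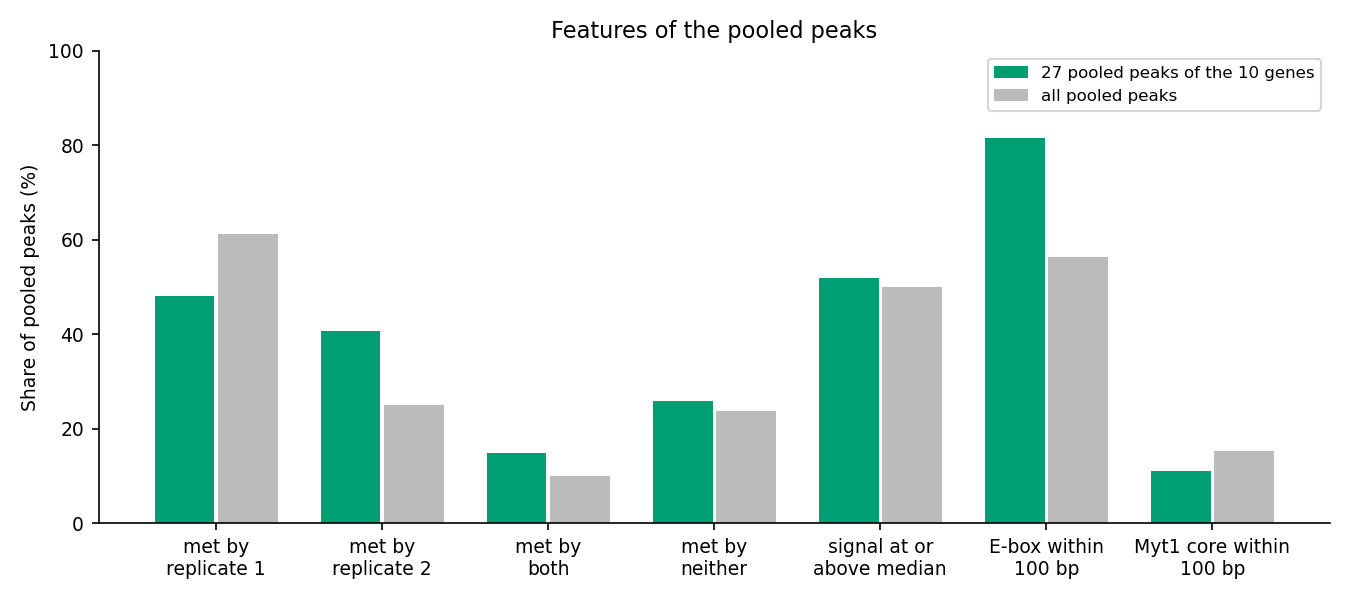
Share of pooled peaks (y axis, %) met by replicate 1, replicate 2, both or neither, with a signal at or above the median, or with an E-box or the Myt1 core within 100 bp of the summit; the left bar of each pair is the 27 peaks of the 10 genes and the right bar is all pooled peaks. The widest gaps are for the E-box (81.5% against 56.4%) and for peaks met by replicate 2 (40.7% against 25%).

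The 47 thresholded peaks all lay outside the 10 windows. The nearest lay 77116 bp from the 5′ end of *hlh-14* and 83845 bp from that of *egl-44*, both on chromosome II, and 134703 bp from that of *lin-32*. For *egl-46*, on chromosome V, it was 4215811 bp away. The median was 409 kb over the 10 genes and 934 kb over all genes.

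A further 35 genes were taken by gene family or by role, so not all of them need act in neurogenesis. Of these 35, 30 had a pooled peak in the window, against 88.4% of all genes, and 14 in the promoter window, against 39.1%. Pooled peaks per kb were 0.305 at the 10 genes and 0.294 at the 35, but other values lay apart. Replicate 2 peaks per kb were 0.373 at the 10 genes and 0.255 at the 35. Pooled peaks per kb were 0.2 upstream and 0.44 in bodies at the 10 genes, with the opposite order at the 35, 0.326 upstream and 0.252 in bodies. Replicate 1 met 48.1% of the pooled peaks of the 10 genes and 68.9% of those of the 35. None of these differences was tested. The 35 were 13 other bHLH genes (10 with a peak), 7 Hes-like bHLH genes (5), 4 other Sox genes (4) and 11 further factors (11). Some of their windows overlap, so *hlh-28* and *hlh-29* share a peak, as do *hlh-25* and *hlh-26*. One of the 1000 strongest pooled peaks lay at 0 of the 10 genes and at 5 of the 35, against 7.79% of all genes.

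The strongest of these, and the only thresholded peak at the 35 genes, lay in the window of *hlh-27*, at 5543463 to 5543742 on chromosome II. It had a signal of 31.4 and was met by 9.76 in replicate 1 and 18 in replicate 2. It lay 3390 bp upstream of *hlh-27*, over the spliced leader RNA gene *sls-2.2*, and nearer to the 5′ end of the insulin-like gene *ins-13*. The others were at *tlp-1* (16.4, in an exon), *hlh-12* (14.4, inside *spp-8*) and *hlh-8*, the Twist gene (14.2, 916 bp upstream), none of them met by both replicates. *ztf-11* itself, on chromosome I, had 7 pooled peaks, the strongest of 14.5 at 4786 bp upstream, met by 21 in replicate 1, rank 67, and not by replicate 2. The strain was made with an insertion targeting that gene, and the part of the insertion in this signal was not tested.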

How the data were processed

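The data were peak lists for eGFP-ZTF-11 in whole L4 larvae, 1 group with 2 replicates. Per the README files deposited with the lists, the authors derived relaxed peaks from the alignments of each replicate, and of both together, with a control, and the IDR-thresholded list from those. The sources used here do not name the peak caller, aligner or settings, and the control was not analysed here. The deposited signal value of each peak has no stated scale and was used only within a list. The deposited −log10 q was only described. Lists in ce10 were not used, for want of an annotation of that build. Genes, exons and UTRs came from the Ensembl annotation of WBcel235 and sequence from the RefSeq genome of the same assembly, whose chromosome lengths hold every gene and peak. Positions are counted from 1.

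A peak belonged to a window when its summit lay in it, and 2 peaks met when they shared 1 bp or more. Percentages of all genes use the same rule over 19973 protein-coding genes. Motifs were searched on both strands within 100 bp of summits. With 1 group and no second condition no test was made, and the lists give no counts, so no interval rests on depth. The spread is shown by giving each replicate's values. The members and gene lists were chosen with earlier results of these data known. All 10 members are named. Of the 35 other genes, taken by family or role, those with one of the 1000 strongest pooled peaks and *ztf-11* are. Alternatives were upstream windows of 2 and 10 kb, overlap with the window, peaks at or above the median, equal list sizes, each replicate alone, other overlap rules and promoter windows, the 5000 strongest peaks and other motif settings. Counting was tested on simulated data. Python 3.11.15, numpy 2.4.6, pandas 2.3.3 and matplotlib 3.10.9 were used.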

Additional observations from a re-analysis of the deposited data

How the results depend on the processing

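Of 44 recomputed counts and medians, 35 stayed within 1.5 times of the reported value, or within the spread of the replicates for the median. With 10 kb upstream the 10 genes had 43 pooled peaks, in place of 27, and 7 met by both replicates, in place of 4. With peaks at or above the median signal there were 14 pooled peaks and 0 met by both. With only the outermost 5′ ends, 3 genes had a promoter peak, in place of 5. Among the 5000 strongest pooled peaks, 4 genes had one, in place of 0 among the 1000 strongest, where leaving out a replicate gave 0 to 2. The shares of all genes were not recomputed for other windows, stricter lists, outermost 5′ ends or the 5000 strongest, so these counts have no background beside them. The highest peak of each gene lay at a median percentile of 76.5 in the pooled list, and leaving out a replicate gave 44.7 to 88.5. With AAGTT in place of AAAGTTT, 14 peaks held the motif, in place of 3. A wider window, a stricter list or a shorter motif gives such shifts by construction; the cause of the others was not tested. Of 16 percentiles of single genes, 11 were counted as moved, by the spread of the replicates. By this rule a small change counts as moved where the replicates lie close together. Thus *hlh-2* (69.9, against 74.1 and 75.0) moved and *hlh-14* (59.6, against 85.1 and 40.9) did not, so the count does not measure the size of the changes. At *hlh-3* and *ngn-1* replicate 2 had no peak, so there was no spread and any change counted as moved. No paired analysis was possible because there is 1 group. The lists hold no depth, 2 replicates allow no test, and a weak site in few cells was not detectable here.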
